A study of Mus musculus with 4 samples.

Results

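Long-chain fatty acids are a main fuel of resting and slowly working muscle. They are released from lipid droplets by lipases, activated to acyl-CoA, carried into mitochondria on carnitine and shortened by the repeated steps of beta oxidation, which feed electrons to the respiratory chain. The tibialis anterior, which lifts the foot and is mostly fast-twitch, mixes fibres that burn fat well with glycolytic fibres that store little of it. The 32 genes described here are the enzymes of that route together with lipases, droplet coat proteins, thioesterases, an uncoupling protein and enzymes of ketone body use, chosen by name from a list. All 32 were found among 28782 entries that name 1 gene and had a count in a kept section, and 31 passed the filter on low counts. The exception was Acsf2, an acyl-CoA synthetase, with 34 transcripts in all; entries naming it together with other genes held a further count equal to 23.5% of that.

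Transcripts were counted by TOMO-seq in 4 mouse tibialis anterior muscles, cut into cryosections whose RNA was primed section by section with CEL-Seq2 barcodes. CEL-Seq2 counts transcript 3' ends, each tagged by a unique molecular identifier (UMI). All 4 muscles form 1 group with no treatment, strain, age or sex given in the sources used here, and nothing says that they came from separate animals. The p-values speak of the scatter of zone sums left after each muscle's own level is taken out, and that scatter may be technical. The data hold 171 kept sections (37, 45, 46 and 43 in muscles 1 to 4) with 18924848, 17114433, 26989829 and 22878407 transcripts, and single sections range from 86190 to 1159697. Sections were ordered by barcode number. Which anatomical end these numbers start from is not given in the sources used here, and "first end" is the end with the low numbers. Each muscle was cut into 5 zones of equal length, with 6 to 10 sections each, and zone 1 is the first end. Levels by zone are CPM, the counts of a zone sum scaled to a common library total, with TMM scaling between zones. Differences are in log2 units from edgeR's quasi-likelihood test with muscle as a block and Benjamini-Hochberg adjustment over all 9317 genes tested, and "called" means an adjusted p under 0.05. Their standard errors (SE) rest on that remaining scatter of all 20 zone sums. They do not measure how far a difference between the ends varied over the 4 muscles. Fibre markers were abundant, with means of 3443 CPM for the skeletal actin Acta1 and 2189 CPM for myoglobin (Mb). Muscles 1 and 2 used one set of section barcodes and muscles 3 and 4 another, which is treated as a batch. A level in a section or zone cannot separate fewer cells of a type from less RNA per cell.

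Promoter sequences are shown first for some members called in the comparison of the muscle's ends described below and for a member that was not. The called ones are the dehydrogenase genes Acadl and Acadm and the gene pair Hadha and Hadhb. The one not called is Ucp3. They come from RefSeq (GRCm38.p6), which gave 29 start-site windows of 250 bases before and 50 after the start for 26 of the 32 members. They read 5' to 3' on the strand of the gene (for the Hadha and Hadhb interval, on the plus strand), and capitals mark AGGTCA or GGGCGG on either strand. The first sequence is Acadl, upstream on the minus strand at chr1:66863310-66863559. The second is Acadm, on the minus strand at chr3:153944644-153944893. The third is Ucp3, on the plus strand at chr7:100472741-100472989. The last is the whole interval between the start of Hadha, which runs on the minus strand, and the start of Hadhb, which runs on the plus strand, at chr5:30155163-30155247.
Acadl: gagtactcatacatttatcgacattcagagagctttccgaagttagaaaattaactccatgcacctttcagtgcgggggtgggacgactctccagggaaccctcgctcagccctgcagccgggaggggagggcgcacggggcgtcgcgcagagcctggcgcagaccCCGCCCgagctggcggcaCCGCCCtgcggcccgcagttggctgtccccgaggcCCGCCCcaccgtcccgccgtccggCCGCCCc
Acadm: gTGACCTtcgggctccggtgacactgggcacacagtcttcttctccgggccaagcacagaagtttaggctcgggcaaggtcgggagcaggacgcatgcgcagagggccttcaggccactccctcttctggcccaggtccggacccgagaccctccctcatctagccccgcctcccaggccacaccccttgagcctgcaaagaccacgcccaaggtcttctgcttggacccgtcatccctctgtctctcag
Ucp3: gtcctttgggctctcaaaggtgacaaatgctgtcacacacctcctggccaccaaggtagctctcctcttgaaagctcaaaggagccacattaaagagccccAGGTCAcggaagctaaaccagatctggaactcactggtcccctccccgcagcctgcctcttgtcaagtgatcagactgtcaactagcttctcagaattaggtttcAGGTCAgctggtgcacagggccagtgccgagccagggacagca
Hadha to Hadhb: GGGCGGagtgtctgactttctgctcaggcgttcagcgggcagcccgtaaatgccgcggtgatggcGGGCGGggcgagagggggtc
Hadha and Hadhb are the alpha and beta subunits of the mitochondrial trifunctional protein, and their genes lie head to head with 85 bases between them. The 300-base windows of both genes overlap by 228 bases. GGGCGG, the core of a GC box bound by Sp1-type factors, occurs 2 times in that interval and 4 times upstream of Acadl. AGGTCA, the half-site of many nuclear receptors, occurs once upstream of Acadm and 2 times upstream of Ucp3. Of the 29 windows, 6 held AGGTCA in the 250 upstream bases, against 14.02% of all windows in the table, and they belong to Acadm, Acadvl, Echs1, Plin2, Plin5 and Ucp3. GGGCGG was found in 16 of the 29 windows, from 15 genes, against 32.7% of all windows. Of the 11 called members with a window, 2 held AGGTCA and 7 held GGGCGG, against 6 and 15 of all 26 members with a window. The longer motifs TNAAGGTCA, which contains AGGTCA and is a site of oestrogen-related receptors, and the direct repeat of the half-site with a 1-base spacer bound by peroxisome proliferator-activated receptors with RXR, were not found in any of the 29 windows of 300 bases, against 1.28% and 0.38% of all windows. Such matches describe letters in these windows and say nothing of binding.

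Transcripts of fatty acid oxidation were higher at the first end of the muscle than at the last. Of the 31 members tested, 13 were called higher in zone 1 than in zone 5 and 0 were called lower, where 3.18% of all genes tested were called, 2.04% higher and 1.14% lower. The 13 were Acadvl, Cpt2, Acaa2, Acadl, Etfb, Oxct1, Hadha, Acsl1, Decr1, Acadm, Eci1, Hadh and Hadhb, with log2 differences from 0.37 for Hadhb to 0.60 for Acadvl. The median over the 31 members was 0.37, against -0.003 over all genes, and 29 of the 31 were above 0. In 17 members zone 1 exceeded zone 5 in 4 of 4 muscles, as in 9.56% of all genes, and 0 members were lower in 4 of 4, as in 9.86%. For Cpt2, Acadm and Hadh every muscle's zone 1 lay above every muscle's zone 5, which held for 0.955% of all genes. Without the muscle term in the fit 0 members were called, where 0.0107% of all genes were higher. With library totals in place of TMM scaling the count fell to 1 (Acadl, the median over members 0.25), where 0.386% of all genes were higher. That scaling moved the median of all genes to -0.11. Without muscle 2, 6 members were called (Acadl, Acadm, Hadhb, Acsl1, Acaa2 and Oxct1), against 0.555% of all genes. With limma 11 of the 13 calls were kept, and those of Acadvl and Cpt2 were lost (limma adjusted p = 0.093 and 0.094). All genes called higher numbered 114 there, against 190 in the main fit. Without the filter on low counts 11 were kept (Cpt2 and Decr1 lost, 127 of all genes higher). With the outermost 2 sections at each end left out 12 were kept (Decr1 lost, 168 of all genes higher).

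**Figure D1:**
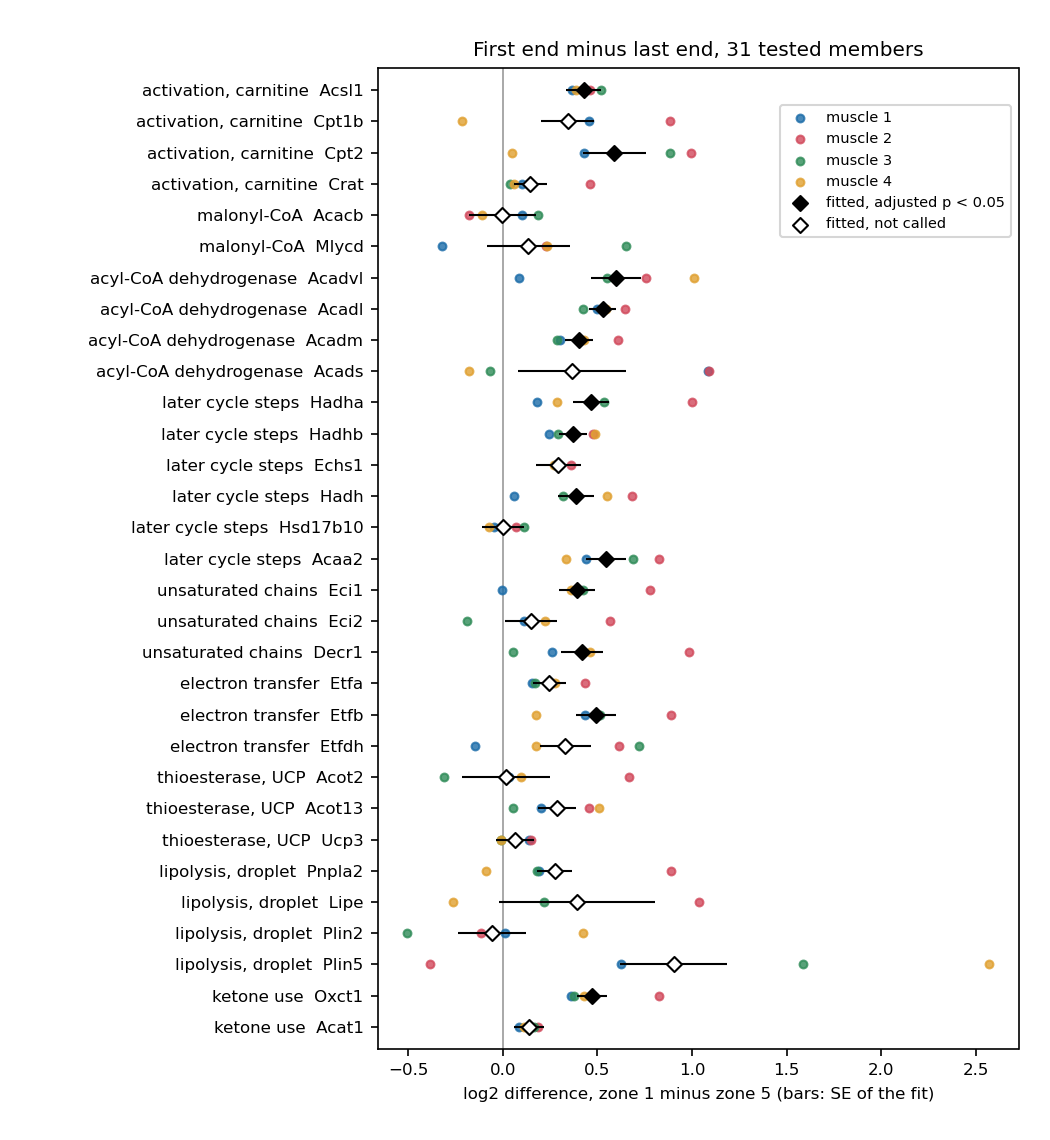
Log2 difference between zone 1 and zone 5 for the 31 tested members, ordered by role. Coloured points are the 4 muscles, diamonds the fitted difference with its SE, filled where the adjusted p was under 0.05; the 13 filled diamonds all lie to the right of 0, between 0.37 and 0.60.

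The acyl-CoA dehydrogenases, which open each round of beta oxidation and are specialised by chain length, were called in 3 of 4 cases. Acadl, the long-chain enzyme, stood at 199, 236, 144 and 188 CPM in zone 1 of muscles 1 to 4 and at 141, 151, 107 and 129 CPM in zone 5. Zone 1 was higher in each muscle, and the 2 sets overlapped, with muscle 3 the lowest in both. The fitted difference was 0.53 ± 0.07 (SE), a fold of 1.44 (edgeR adjusted p = 4.77e-07), the lowest adjusted p among the members. The gene lies on chromosome 1 at 66830839 to 66863277 (GRCm38). Acadm, the medium-chain enzyme, had 143, 194, 139.9 and 129 CPM in zone 1 and 116, 127, 115 and 95.9 CPM in zone 5. Its 2 sets did not overlap, and the difference was 0.40 ± 0.07 (edgeR adjusted p = 0.000256). Acadvl, the very-long-chain enzyme of the inner membrane, had 22.01, 26.2, 20.4 and 28.5 CPM in zone 1 and 20.8, 15.5, 13.9 and 14.1 CPM in zone 5. Muscle 1 hardly differed between its ends (0.08), whereas muscle 4 differed by 1.01, and the fitted difference was 0.60 ± 0.13 (edgeR adjusted p = 0.00369). Acads, the short-chain enzyme, was sparse at a mean of 3.70 CPM and was not called (0.37 ± 0.28, edgeR adjusted p = 0.65), with 1.09 in muscles 1 and 2 and -0.07 and -0.18 in muscles 3 and 4. Acadl and Acadvl overlap genes on the opposite strand (Gm27934, and Dvl2 with Mir324), as do Acsl1, Crat, Acacb, Hadha (Garem2), Echs1 (Paox), Eci2, Etfdh, Ucp3, Lipe, Oxct1 and Acsf2 among the members. The use of strand in counting is not given in the sources used here, so reads of such partners cannot be told apart. Genes on the same strand overlap Acadl (Gm15793), Hadhb (Mir1960), Decr1 (Mir6400), Etfb (Gm44816, Gm45233 and Mir7051), Cpt1b (Gm44502) and Etfdh (Gm37973). Strand alone cannot separate those.

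Of the enzymes of the later steps, the hydratase, hydroxyacyl-CoA dehydrogenase and thiolase reactions, 4 of 6 were called. Hadha had 88.7, 121, 88.6 and 122 CPM in zone 1 and 78.3, 60.7, 61.1 and 99.8 CPM in zone 5. The largest gap was in muscle 2 and the smallest in muscle 1 (log2 1.00 and 0.18), and the fitted difference was 0.47 ± 0.09 (edgeR adjusted p = 0.00119). Hadhb, its partner in the trifunctional protein, had 121, 174.5, 155 and 143 CPM in zone 1 and 102, 125, 127 and 102 CPM in zone 5. Zone 1 was higher in all 4 muscles, and the difference was 0.37 ± 0.07 (edgeR adjusted p = 0.000899). Zone means ran from 105 ± 18.99 (SD, n = 4) to 74.96 ± 18.5 CPM from zone 1 to zone 5 for Hadha and from 148 ± 22.3 to 114 ± 13.8 CPM for Hadhb. Hadh, the hydroxyacyl-CoA dehydrogenase of shorter chains, had 64.4, 86.9, 69.9 and 65.2 CPM in zone 1 and 61.9, 54.1, 56.2 and 44.5 CPM in zone 5. The sets did not overlap, although muscle 1 contributed a log2 difference of 0.06 alone, and the fitted value was 0.39 ± 0.09 (edgeR adjusted p = 0.00829). Acaa2, the thiolase that releases acetyl-CoA, had 61.4, 52.1, 40.3 and 43.98 CPM in zone 1 and 45.2, 29.3, 24.9 and 34.9 CPM in zone 5 (0.55 ± 0.11, edgeR adjusted p = 0.000743). Entries naming Acaa2 with other genes held counts equal to 2.44% of its own. Echs1, the short-chain hydratase, was not called (0.29 ± 0.12, edgeR adjusted p = 0.22) although its 4 muscles lay close together between 0.27 and 0.36. Hsd17b10, a dehydrogenase of isoleucine breakdown and of short and branched acyl chains that is also part of mitochondrial RNase P, differed by 0.002 ± 0.11 (edgeR adjusted p = 0.998), with a 95% interval from -0.22 to 0.22.

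Of the 4 tested genes of activation and carnitine entry, 2 were called. Cpt2, the carnitine palmitoyltransferase on the matrix side, had 14.45, 17.95, 14.6 and 10.9 CPM in zone 1 and 10.7, 8.96, 7.86 and 10.55 CPM in zone 5. The sets came close in muscle 4 (log2 0.05) and did not overlap, and the difference was 0.59 ± 0.17 (edgeR adjusted p = 0.0305). Acsl1, the main long-chain acyl-CoA synthetase of muscle, had 53.2, 36.98, 56.1 and 55.6 CPM in zone 1 and 41.3, 26.9, 39.1 and 42.5 CPM in zone 5. Its 4 muscles differed by 0.36 to 0.52, with muscle 2 low at both ends, and the fitted difference was 0.43 ± 0.09 (edgeR adjusted p = 0.00243). Cpt1b, the muscle form of the outer-membrane transferase that commits acyl groups to the mitochondrion, had 20.4, 21.9, 22.6 and 14.9 CPM in zone 1 and 14.8, 11.8, 17.7 and 17.3 CPM in zone 5. Muscle 4 went the other way (-0.21), and the difference of 0.34 ± 0.14 was not called (edgeR adjusted p = 0.21). Crat, carnitine acetyltransferase, which buffers acetyl-CoA, had 78.8, 73.97, 57.3 and 57.3 CPM in zone 1 and 73.4, 53.7, 55.7 and 55.01 CPM in zone 5, and was not called (0.14 ± 0.09, edgeR adjusted p = 0.51). Malonyl-CoA, the inhibitor of carnitine palmitoyltransferase 1, is made near mitochondria by the enzyme Acacb encodes and removed by that of Mlycd. Neither was called, at -0.001 ± 0.18 (95% interval -0.36 to 0.36) for Acacb and 0.14 ± 0.22 for Mlycd (edgeR adjusted p = 0.999 and 0.88).

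Unsaturated fatty acids need helper enzymes that move or remove double bonds, and 2 of the 3 measured were called. Eci1, an enoyl-CoA isomerase, had 50.9, 91.6, 47.1 and 77.7 CPM in zone 1 and 50.97, 53.3, 35.04 and 60.4 CPM in zone 5. Muscle 1 showed no gap (-0.002) and the other 3 were higher at the first end, with a fitted difference of 0.39 ± 0.09 (edgeR adjusted p = 0.00723). Decr1, the dienoyl-CoA reductase, had 48.3, 61.4, 22.8 and 29.5 CPM in zone 1 and 40.3, 30.9, 22.01 and 21.4 CPM in zone 5. The gap was widest in muscle 2 (0.99) and narrow in muscle 3 (0.05), and the difference was 0.42 ± 0.11 (edgeR adjusted p = 0.0205). Eci2, a second isomerase found in mitochondria and peroxisomes, was not called (0.15 ± 0.14, edgeR adjusted p = 0.73), and entries naming it with other genes, mostly its relative Eci3, held counts equal to 3.94% of its own. The electron transfer flavoprotein takes electrons from the dehydrogenases and passes them to ubiquinone through the oxidoreductase encoded by Etfdh. Its beta subunit Etfb had 59.1, 49.9, 35.7 and 30.4 CPM in zone 1 and 43.8, 26.9, 24.9 and 26.9 CPM in zone 5. Zone 1 was higher in each muscle and the level was lower in muscles 3 and 4 at the first end, with a difference of 0.49 ± 0.11 (edgeR adjusted p = 0.00212). Its alpha subunit Etfa had 46.97, 59.96, 103 and 96.9 CPM in zone 1 and 42.1, 44.4, 91.4 and 79.95 CPM in zone 5. Here muscles 3 and 4 were the high ones at both ends, and the difference of 0.25 ± 0.09 was not called (edgeR adjusted p = 0.12), although it was with 3 zones. Etfdh was not called either (0.33 ± 0.13, edgeR adjusted p = 0.21).

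**Figure D2:**
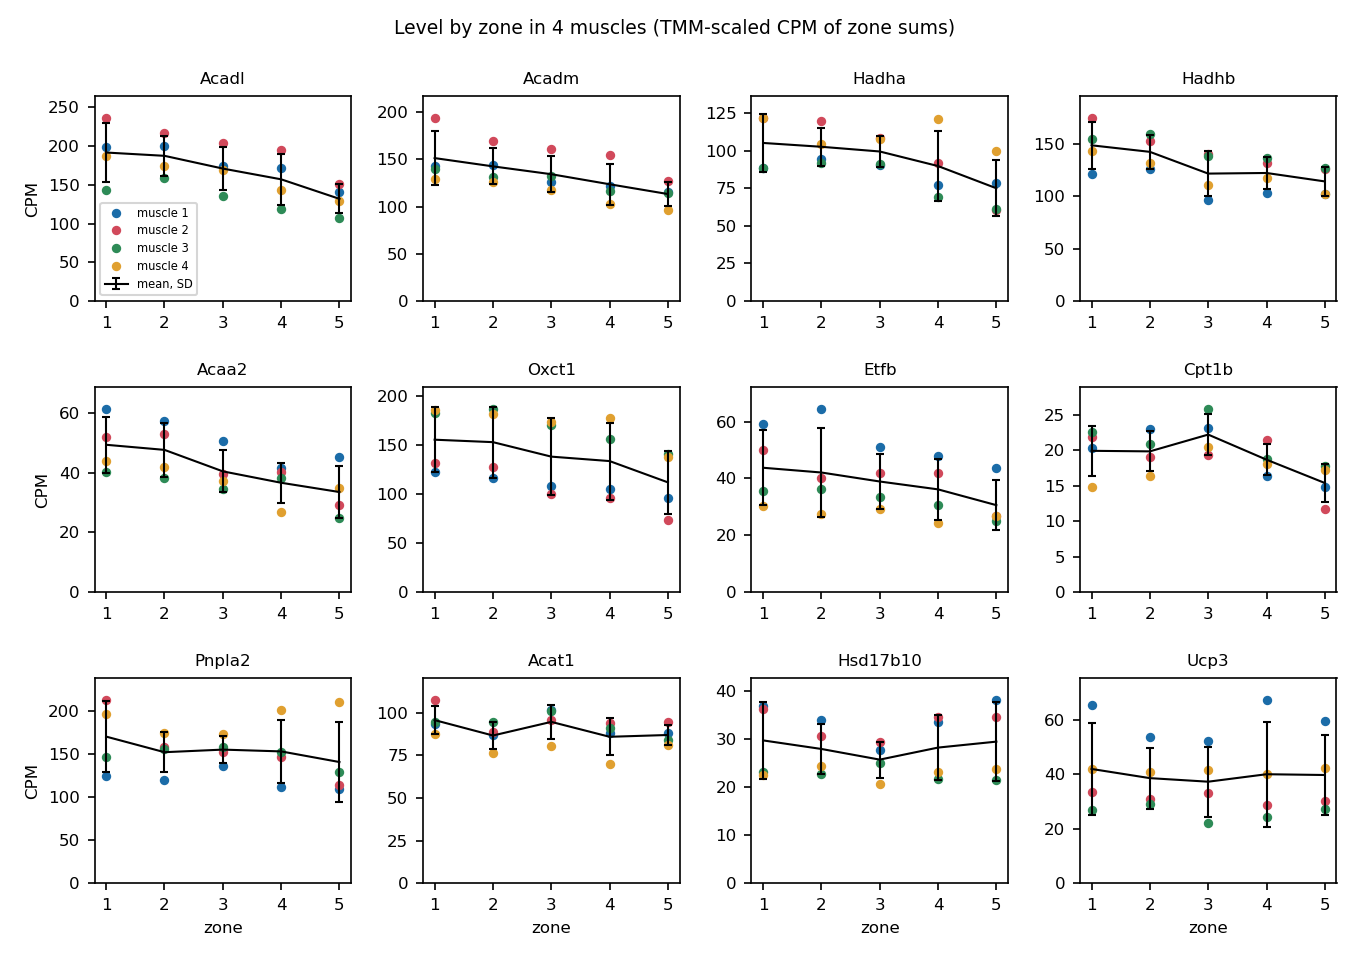
TMM-scaled CPM of 12 members in zones 1 to 5 of the 4 muscles (coloured points), with the mean and SD over muscles (black line and bars) and each vertical axis starting at 0. The means of Acadl, Acadm, Hadha, Acaa2, Oxct1 and Etfb fall at every step from zone 1 to zone 5, the mean of Cpt1b is highest in zone 3, and those of Hsd17b10 and Ucp3 are lowest in zone 3.

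Oxct1, the succinyl-CoA transferase that lets muscle use ketone bodies, had 123, 131, 183 and 186 CPM in zone 1 and 96.0, 74.1, 141 and 138 CPM in zone 5. Muscles 3 and 4 were higher than muscles 1 and 2 at both ends, and within each muscle zone 1 was higher (0.47 ± 0.08, fold 1.39, edgeR adjusted p = 3.76e-05). The gene lies on chromosome 15 at 4026383 to 4155344 (GRCm38). Acat1, the acetoacetyl-CoA thiolase of ketone body and isoleucine breakdown, had 93.3, 107, 94.4 and 87.7 CPM in zone 1 and 87.97, 94.4, 84.2 and 81.2 CPM in zone 5. Its differences of 0.08 to 0.18 were small and alike in the 4 muscles, and it was not called (0.14 ± 0.08, 95% interval -0.02 to 0.30, edgeR adjusted p = 0.46). Among the 3 other tested genes of ketone body metabolism (of 6 listed) 0 were called.

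None of the 4 genes of lipid droplets and lipolysis was called. Pnpla2, the lipase that takes the first fatty acid from stored triglyceride, had 125, 212, 146 and 197 CPM in zone 1 and 109, 114, 129 and 209.5 CPM in zone 5. Muscle 2 was far higher at the first end (0.89) and muscle 4 slightly lower (-0.09), and the fitted difference of 0.27 ± 0.09 had an adjusted p of 0.094 (edgeR). It passed the threshold with 10 zones, without muscle 4 and in muscles 1 and 2 alone. Plin5, the droplet coat protein that ties droplets to mitochondria, had 11.2, 2.15, 3.61 and 4.38 CPM in zone 1 and 7.19, 2.85, 1.123 and 0.64 CPM in zone 5. The muscles went from -0.39 in muscle 2 to 2.57 in muscle 4, and the fitted difference of 0.90 ± 0.28, the widest of all members, was not called (edgeR adjusted p = 0.065). With 3 zones, with 10 zones and in muscles 3 and 4 alone it was. Lipe, hormone-sensitive lipase, was sparse at a mean of 1.89 CPM (0.39 ± 0.41, edgeR adjusted p = 0.77), and Plin2, a general droplet coat protein, gave -0.06 ± 0.18 (edgeR adjusted p = 0.95) with a range of -0.50 to 0.42 over muscles. Of 12 other tested lipolysis and droplet genes (of 19 listed) 0 were called.

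Acot2 and Acot13 encode thioesterases that release free fatty acids from acyl-CoA in mitochondria, and Ucp3 encodes a carrier of the inner membrane linked to fatty acid use. Ucp3 had 65.4, 33.4, 27.05 and 42.01 CPM in zone 1 and 59.4, 30.1, 27.2 and 42.2 CPM in zone 5. The muscles differed from each other, with muscle 1 the highest, and the ends of each muscle were close (0.07 ± 0.10, 95% interval -0.14 to 0.27, edgeR adjusted p = 0.87). Acot2 was not called (0.02 ± 0.23, edgeR adjusted p = 0.99), nor was Acot13 (0.29 ± 0.10, edgeR adjusted p = 0.11), which had more in zone 1 than in zone 5 in 4 of 4 muscles and was called with 3 zones.

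The mean over the 4 muscles fell gradually along the muscle. Summed over the members, zone means were 1776 ± 161, 1709.7 ± 54.7, 1615 ± 41.1, 1513 ± 64.6 and 1377 ± 75.5 CPM (SD, n = 4) from zone 1 to zone 5. From zone 1 to zone 2 the sum rose from 1691.2 to 1699.1 CPM in muscle 1 and from 1631 to 1668.4 CPM in muscle 3. It fell from 1998.9 to 1789.6 CPM in muscle 2 and from 1784.2 to 1681.8 CPM in muscle 4. The ratio of zone 1 to zone 5 was 1.18, 1.54, 1.23 and 1.23 in muscles 1 to 4 (1.29 ± 0.16, SD, n = 4). The median step over the 31 members was 0.05 from zone 2 to zone 1 and grew to 0.09, 0.12 and 0.14 for the next 3 pairs of neighbours, as log2 differences of the zone nearer the first end minus the other. The mean fell at every step in 9 members (Acaa2, Acadl, Acadm, Acot13, Cpt2, Etfb, Hadh, Hadha and Oxct1), or 29.03%, against 1.92% of all genes. Zone 1 was the highest zone for 21 members (67.7%, against 20.8% of all genes) and zone 5 the lowest for 22 (70.97%, against 24.35%). Acsl1, Acacb, Acot2, Crat, Etfdh and Lipe had their highest mean in zone 2, Cpt1b and Etfa in zone 3, Mlycd in zone 4 and Plin2 in zone 5.

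In a test for any difference among the 5 zones, 13 of 31 members were again called, against 3.98% of all genes. These were the genes of the first-to-last comparison with Crat in place of Decr1. Crat had its highest mean in zone 2 (72.3 ± 12.4 CPM, SD, n = 4) and its lowest in zone 4 (56.2 ± 8.17 CPM), with an adjusted p of 0.032 (edgeR). Without the muscle term 0 members were called in this test and with library totals in place of TMM scaling 1. Without muscle 3 it called 6 and without muscle 2 it called 7. The share of all genes called in these alternative fits is not given here. A loss in the members therefore cannot be told from a loss in all genes.

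Each muscle was also described section by section, as the members' summed CPM out of the transcripts that are not mitochondrially encoded, a scale that does not use TMM. In muscle 1 single sections ran from 3435 to 4867 of these CPM, in muscle 2 from 3035 to 5869, in muscle 3 from 3215 to 5384 and in muscle 4 from 2761 to 5052. The median of the sections up to relative position 0.25 (0 is the first kept section and 1 the last) and that of the sections from 0.75 on stood at 4468 and 3757 in muscle 1, 5367 and 3752 in muscle 2, 4580.3 and 3544 in muscle 3, and 4553 and 3422 in muscle 4. All 11, 12, 12 and 11 sections from 0.75 on were under the median of the first stretch of their muscle. The highest section was not the outermost one: it lay at relative position 0.25, 0.20, 0.33 and 0.26. In muscle 3 the first few sections were low and the level then stayed high up to the middle, whereas muscle 2 declined along nearly its whole length.

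**Figure D3:**
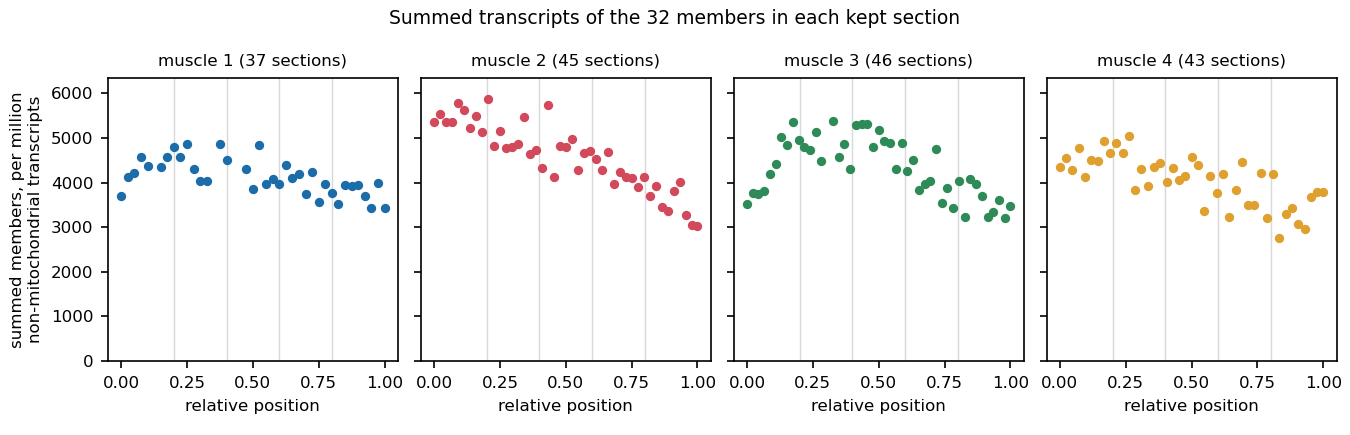
Summed transcripts of the 32 members as CPM of non-mitochondrial transcripts in each kept section, against relative position along each of the 4 muscles (0 is the first kept section); grey lines bound the 5 zones. Muscle 2 falls from a highest section of 5869 to a lowest of 3035, and muscle 3 is highest at position 0.33 rather than at its first sections.

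A spline of position fitted to single sections of 1 muscle at a time called 0 of 31 members in muscle 1, 10 of 32 in muscle 2, 11 of 31 in muscle 3 and 2 of 31 in muscle 4, against 1.22%, 3.06%, 3.44% and 1.39% of the genes tested there. At an unadjusted p under 0.05 the counts were 7, 16, 18 and 9, against 9.11%, 11.7%, 12.9% and 9.41% of the genes tested there. The sections of a muscle are not independent animals, and such p-values cover section-to-section scatter within 1 muscle. Acadl and Hadhb were called in muscles 2, 3 and 4, with edgeR adjusted p from 2.06e-08 for Acadl in muscle 3 to 0.0201 for Hadhb in muscle 4. Acadm, Eci1, Hadh, Hadha, Oxct1 and Pnpla2 were called in muscles 2 and 3. Pnpla2, not called between the ends, had adjusted p of 1.51e-06 and 2.21e-05 there, and Hadha had 2.15e-09 and 2.25e-07.

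The size of the difference varied between the muscles, which was not tested. The median over members of zone 1 minus zone 5 was 0.19, 0.61, 0.29 and 0.27 in muscles 1 to 4, and 21 of 31 members had their widest difference in muscle 2. Within the barcode batches, 8 members were called in muscles 1 and 2 alone (Acadl, Acadm, Hadha, Etfb, Acaa2, Decr1, Oxct1 and Pnpla2), against 1.31% of all genes called higher there. In muscles 3 and 4 alone 4 were called (Acadl, Acadvl, Oxct1 and Plin5), against 0.402%. All of these members were higher at the first end. Section depth ran in the members' direction. The median section held 494012 transcripts in zone 1 and 406235 in zone 5 of muscle 1, 255010 and 208255 in muscle 2, 468806 and 354969 in muscle 3, and 612213 and 482562 in muscle 4. The zone totals did so in muscles 2, 3 and 4, while in muscle 1 zone 1 held 3166410 transcripts in all and zone 5 held 4454853. With mean section depth as a covariate, added after the data were seen, 10 members were called, against 1.33% of all genes called higher in that fit, and the calls of Hadh, Cpt2 and Decr1 were lost. With zone sums thinned to the shallowest, 12 members were called and the call of Etfb was lost. All genes called higher fell from 190 in the main fit to 135 there. Mitochondrially encoded transcripts took 62.9% of zone 1 and 58.6% of zone 5 in muscle 1, and 65.5% and 55.4% in muscle 2. In muscle 3 these shares were 64.5% and 62.5%, and in muscle 4 66.5% and 65.8%. With those genes left out of the fit, 13 members were called, and the 13 were shared with the fit that held them. The fit without them called 198 of all genes higher at the first end.

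Between the ends and the middle of the muscle the members showed no called difference. Of 31 members 0 were called, against 1.45% of all genes (0.623% higher and 0.826% lower at the ends), by edgeR, and 4 had an unadjusted p under 0.05 (Cpt1b, Etfa, Acadvl and Hadha), against 11.9%. DESeq2 called 0 of 17 with an adjusted p and limma 0 of 31. The median over members was -0.05, with 1 member (Hadhb) higher at the ends in 4 of 4 muscles, against 8.54% of all genes, and 6 lower, against 10% of them. Cpt1b was lowest in adjusted p: its differences were -0.42, -0.27, -0.36 and -0.35 in muscles 1 to 4, and zone 3 had a mean of 22.2 ± 2.88 CPM (SD, n = 4), zone 1 one of 19.9 ± 3.51 CPM and zone 5 one of 15.4 ± 2.73 CPM (-0.34 ± 0.11, edgeR adjusted p = 0.092). With 10 zones Cpt1b was called (-0.38 ± 0.11, edgeR adjusted p = 0.027), and without muscle 4 Acadvl was (-0.40 ± 0.11, edgeR adjusted p = 0.044). All 3 genes of the electron transfer flavoprotein route were lower at the ends in 4 of 4 muscles, and none was called.

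Other genes near the pathway gave lower counts, where 2.04% of all genes were called higher at the first end and 1.14% lower. Whether these lists differ from the members was not tested. Of 22 other tested genes listed around mitochondrial fatty acid oxidation (31 listed) 2 were called higher at the first end and 0 lower. That list takes in Ucp2, Acot7 and the acyl-CoA synthetases Acsl3, Acsl4 and Acsl6, and its median was 0.12. In 4 of 4 muscles 4 of the 22 were higher at the first end and 6 lower, as in 9.56% and 9.86% of all genes. Acsl3, Acsl4 and Acsl6 were among the lower ones. Slc25a20, the carrier that exchanges acylcarnitine for carnitine across the inner membrane, stood at a mean of 31.6 CPM in zone 1 and 21.7 CPM in zone 5 (0.51 ± 0.12, edgeR adjusted p = 0.0085). Ech1, a dienoyl-CoA isomerase, stood at 62.8 and 43.9 CPM (0.48 ± 0.10, edgeR adjusted p = 0.00169). With library totals neither was called. Of 12 tested genes of peroxisomal beta oxidation (19 listed) 0 were called, the median was 0.12 and 9 were above 0. Several were sparse, such as Acaa1a at a mean of 3.29 CPM (0.57 ± 0.31, edgeR adjusted p = 0.44). Of 18 tested regulators (19 listed), among them Ppara, Ppard, Ppargc1a, Esrra and Pdk4, 0 were called between the ends and 9 were above 0. Between ends and middle, Prkag3, a regulatory subunit of the energy sensor AMPK, was higher at the ends (0.38 ± 0.11) and Ucp2, a relative of Ucp3, was lower (-0.41 ± 0.11, edgeR adjusted p = 0.0462 for both). The call of Prkag3 was lost with library totals (edgeR adjusted p = 0.30) and with limma (adjusted p = 0.30), and DESeq2 gave neither gene an adjusted p.

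Nuclear genes of oxidative phosphorylation moved the same way as the members. Of 25 listed, 20 were called higher at the first end, with a median of 0.26 and Atp5g1 the widest (0.41 ± 0.07, edgeR adjusted p = 6.19e-05). With library totals in place of TMM scaling 0 of them were called and the median was 0.14, with 24 of 25 above 0. Between ends and middle 1 of the 25, Ndufa4, was called lower at the ends (-0.46, edgeR adjusted p = 9.33e-07) and 0 higher. The shares of all genes were 0.826% lower and 0.623% higher. Of 14 glycolytic genes 0 were called between the ends (median -0.04). At the ends against the middle, where 0 members were called, Pkm (0.28), Pgm1 (0.27) and Tpi1 (0.22) were higher and Hk2 (-0.43) lower. With library totals none of the 3 higher ones was called, with limma Pkm was, and DESeq2 called 8 glycolytic genes higher. Hk2 was called lower in all of these fits. Across sections of 1 muscle the members' sum followed that of the oxidative phosphorylation genes (r of log2 values 0.77, 0.92, 0.92 and 0.93 in muscles 1 to 4, over 37, 45, 46 and 43 sections) and ran against that of the glycolytic genes (-0.23, -0.52, -0.56 and -0.29). It had r of 0.18, 0.34, 0.43 and -0.07 with the section's transcript total. These are descriptions over sections that share a library and a denominator.

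**Figure D4:**
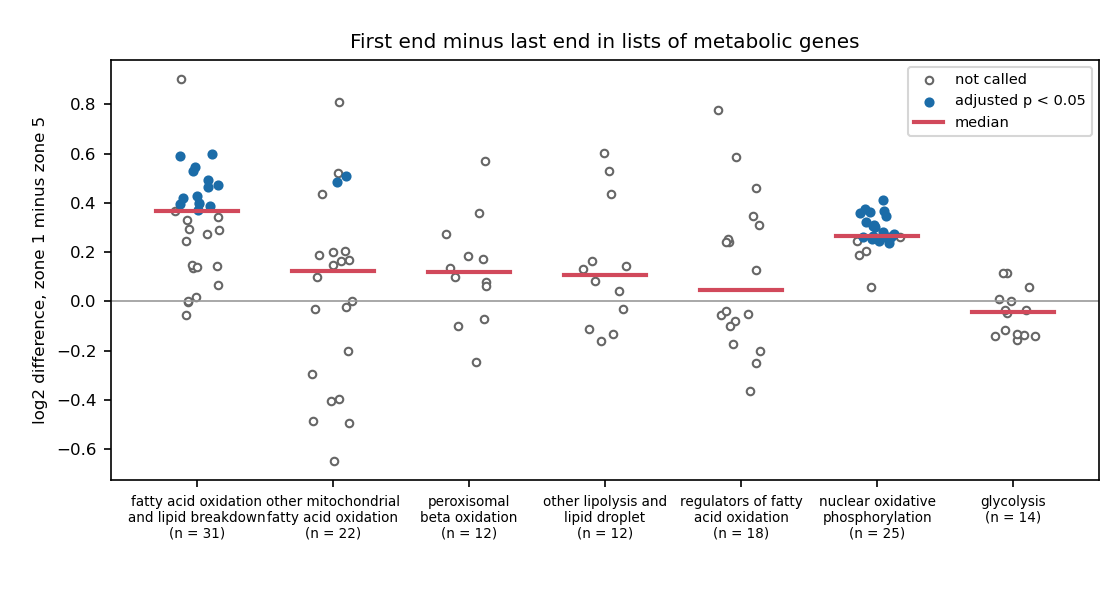
Log2 difference between zone 1 and zone 5 for each tested gene of 7 lists (points, filled blue where the adjusted p was under 0.05), with the median of each list as a red line. The fatty acid oxidation and lipid breakdown genes (median 0.37) and the oxidative phosphorylation genes (0.26) hold most of the filled points, and the glycolytic genes (-0.04) hold none.

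Markers of other cells and fibre types moved with position as well. All 5 red cell genes (haemoglobin genes and Alas2) were called higher at the first end, with a summed mean of 3046 CPM (1342 to 4215 over muscles) in zone 1 and 969 CPM (604 to 1611) in zone 5. Over sections the members' sum had r of 0.68, 0.88, 0.70 and 0.70 with the haemoglobin sum. Of the 4 tested markers of glycolytic type 2B fibres Myh4 (-0.31 ± 0.08, edgeR adjusted p = 0.024) and Actn3 (-0.37 ± 0.08, edgeR adjusted p = 0.00146) were lower at the first end, the call of Myh4 being lost with limma and with observed UMIs, and the summed level of the 4 was 14866 CPM (11337 to 16554) there and 17834 CPM (16649.5 to 19372) in zone 5. Of 9 slow fibre markers 4 were tested and 2, Casq2 (0.73) and Tpm3 (0.72), were higher. The call of Tpm3 was lost with limma (adjusted p = 0.072), and DESeq2 gave no adjusted p for either. Atp2a2 gave -0.27 (-0.95 in muscle 4), and Myl3 gave 0.15, with 2.25 in muscle 2 and -0.12, -0.22 and -0.10 in muscles 1, 3 and 4. Neither of these was called. The slow markers had a summed level of 60.98 CPM (45.7 to 81.1) in zone 1 and 44.2 CPM (29.7 to 67.8) in zone 5. Myh2, the myosin of oxidative type 2A fibres, was not called between the ends (0.17 ± 0.12, edgeR adjusted p = 0.59). Against the middle, Myh2 was called lower at the ends (-0.71, edgeR adjusted p = 6.17e-07), as were 0.826% of all genes. Library totals, limma and DESeq2 called it lower too. It stood at 402, 628, 142 and 116 CPM in zone 1 and 513, 296, 192 and 95.6 CPM in zone 5, so that it was lower at the first end in muscles 1 and 3 and higher in muscles 2 and 4. Over sections the members' sum had r of 0.37, 0.76, 0.44 and 0.17 with Myh2 and of -0.40, -0.71, -0.64 and -0.13 with Myh4 in muscles 1 to 4. Myoglobin, the oxygen store of oxidative fibres, was higher at the first end (0.45 ± 0.08, edgeR adjusted p = 0.000211), a call lost with library totals. Adipocyte markers summed to 6.52 CPM (2.96 to 15.1) in zone 1 and 6.81 CPM (2.24 to 11.8) in zone 5, 0 of the 2 tested of 7 were called between the ends, and 0 of the 7 had no count. Tendon markers summed to 46.5 CPM (42.7 to 49.7) in zone 1 and 109.6 CPM (69.6 to 174.5) in zone 5, where Fmod (-2.68), Chad (-2.59) and Prg4 (-2.12) were called. Endothelial markers summed to 160.4 CPM (146 to 176) and 136 CPM (122 to 149), and Kdr was called higher at the first end (0.78), though not with library totals. Of 6 markers of fibro-adipogenic progenitors Cxcl14 was called higher there (0.89), while their sum was 365 CPM (324 to 392) in zone 1 and 395 CPM (297 to 452) in zone 5. The part of these cell and fibre markers in the members' differences was not tested.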

How the data were processed

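TOMO-seq of 4 muscles gave 96 section barcodes per muscle. The submitters' processing notes name STAR 2.7.7a and the build GRCm38. The sources used here do not name the counter, its annotation or its strand setting. Deposited values are estimated counts per gene and section. From the values, 100% of them equal, within 0.01 UMI, a whole number of UMIs corrected for repeated draws from 4096 possible ones. The most UMIs of a member in a section were 313 (Oxct1), or 7.64% of those possible. Comparison genes and fibre markers include far more abundant ones, such as Aldoa at a mean of 8217 CPM, and their use of UMIs is not given here. With observed UMIs in place of corrected counts, Aldoa's difference of ends minus middle went from 0.15 to 0.32. The median over the 14 glycolytic genes went from 0.160 to 0.187. The authors also deposited a filtered table of normalized signal, used here only to learn which sections they kept.

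Entries naming several genes (0.58% to 0.93% of counts) were left out. Counts were summed per muscle and zone, rounded, and tested with the quasi-likelihood F-test of edgeR 4.0.16 (R 4.3.3), after TMM and filterByExpr, with a muscle block since a muscle's zones share their source. The 20 sums held 1989683 to 6604613 transcripts, and the biological coefficient of variation was 7.03%. SE were derived from the F statistic. Splines (4 degrees of freedom) took genes counted in 25% or more of a muscle's sections. Intervals are at 95%. Scripts were tested on simulated data. limma 3.58.1 and DESeq2 1.42.0 were alternatives, beside scaling, filter, zones, edges, depth, batch and each muscle left out. The members, gene lists, markers and tests were chosen with earlier results of these data known. All members are named by role, and of the other lists those called, at most 5 in each direction. AGGTCA and GGGCGG were added as motifs after the 2 longer ones were searched.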

Additional observations from a re-analysis of the deposited data

Results flagged for a closer look

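Muscle 2 stood apart from the other 3 in 3 of 32 values examined, by a gap to its nearest neighbour wide against the whole range of the 4 muscles. Chance gives such a gap in about 1 of 20 groups of 4. For Crat, zone 1 minus zone 5 was 0.46 in muscle 2 on the log2 scale, against 0.04 to 0.10 in the others. For Oxct1 it was 0.83 in muscle 2, against 0.36 to 0.43. For the members' summed CPM, zone 1 over zone 5 was 1.54 in muscle 2, against 1.18 to 1.23. Zone 5 of muscle 2 was the shallowest of the 8 end zones (1989901 transcripts), and its mitochondrially encoded share was the lowest of them at 55.4%. The part of depth and of that share in these 3 values was not tested.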

How the results depend on the processing

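The 13 calls between the ends became 1 with library totals alone, 0 with no replicate block, 8 in muscles 1 and 2 alone and 4 in muscles 3 and 4 alone. The count was 16 with 3 zones and 15 with 10, while all genes called higher went from 190 to 219 and 228. Leaving out 1 muscle gave 6 to 12 members, with 52 to 141 of all genes called higher. The 13 calls among any of the zones became 1, 0, 6 and 2 in the same order, and 6 to 12 with 1 muscle left out. For these fits of any zone the share of all genes called is not given here. Between ends and middle the count was 1 with 10 zones and 0 to 1 with 1 muscle left out, and limma's median was -0.164. The share of all genes called is not given for these fits either. The cause of these changes was not tested. DESeq2 called 12 of 20 members with an adjusted p between the ends, and 0 of the main calls among them were lost. The split of all genes into higher and lower at the first end was 190 and 106, against 36 and 129 with library totals alone and 169 and 58 with DESeq2. The 13 called members kept their sign under every alternative that gave them an adjusted p. Members not called changed sign between the ends, as follows in log2 units. Ucp3 was -0.0498 with library totals alone, -0.0133 in muscles 3 and 4 alone. Acot2 was -0.0666 with library totals alone, -0.11 with sums thinned to equal depth, -0.152 in muscles 3 and 4 alone. Hsd17b10 was -0.125 with library totals alone, -0.00113 with no low-count filter, -0.0282 with 10 zones, -0.00681 with edges left out, -0.00218 with limma. Acacb was 0.00392 with mitochondrial genes left out, 0.102 with 3 zones, 0.00718 with 10 zones, 0.0137 with no replicate block, 0.102 with sums thinned to equal depth, 0.00336 with observed UMIs, 0.0433 in muscles 3 and 4 alone, 0.121 with depth as a covariate, 0.0673 with limma. Plin2 was 0.0949 with 3 zones. Mlycd was -0.167 with sums thinned to equal depth, -0.173 in muscles 1 and 2 alone. Acads was -0.142 in muscles 3 and 4 alone. With 1 muscle left out in turn the values ran from -0.0616 to 0.196 for Acot2, -0.0964 to 0.0533 for Acacb, -0.0284 to 0.0405 for Hsd17b10, -0.0192 to 0.396 for Mlycd, -0.253 to 0.116 for Plin2. The replicate block is the muscle, whose zones share 1 source. Depth limits the sparse members: Lipe, Acads, Plin5, Acot2 and Mlycd have SE from 0.22 to 0.41.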
